A study of Mus musculus with 10 samples.

Results

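Havcr1, the mouse gene of kidney injury molecule 1 (Kim-1, also TIM-1), is described here across every library of a Drop-seq study of injured mouse kidney cortex. It was taken by its row in each of the 10 tables of counts, as 1 gene of the 28808 listed in any of them. Drop-seq captures single cells with barcoded beads in droplets and counts the 3′ ends of their RNA molecules. The material was kidney cortex of mice aged 4 weeks, and the groups were normal kidneys, used as the control, and injured kidneys on days 1, 2, 4, 7, 11 and 14. The control and days 1, 2 and 4 had 1 library each, and days 7, 11 and 14 had 2 each. The labels do not name the kind of injury, the strain, the sex, or whether libraries of the same day came from separate animals, so the tests measure the spread between libraries, which may be technical.

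Havcr1 encodes a membrane glycoprotein of the TIM family with an immunoglobulin-like outer domain and a mucin stalk. It binds phosphatidylserine, the lipid that dying cells expose, and lets epithelial cells engulf them. Metalloproteases cut its outer part off the cell, and that part is measured in urine as a marker of damage to the proximal tubule, the segment that reabsorbs most of the filtrate. Healthy kidney is known to hold very little of it.

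The gene (ENSMUSG00000040405.13) lies at chr11:46735080-46779578 on the forward strand of GRCm38, the assembly also called mm10, has 4 annotated transcripts and overlaps no other annotated gene. Its relatives lie close by: Timd2 is 28019 bases away on the reverse strand, Timd4 31222 bases and Havcr2 253825 bases. Transcript Havcr1-201 is 1892 bases long in 8 exons, with its coding sequence from position 10 to 924. Of its 1868 stretches of 25 bases, 105 also occur in another gene's transcripts, 80 of them in Timd2 and 54 in Gm4926. Near the 3′ end, where these libraries were read, the overlap was smaller: 7 of the 476 stretches in the last 500 bases are shared, all with Timd2. Runs of 25 or more bases shared with Timd2 number 6. One of them, of 31 bases in the 3′ UTR, ends 225 bases before the transcript's end and is the only 1 in the last 500 bases. The longest run that lies wholly in the coding sequence, at exonic positions 463 to 515 and 1377 bases from that end, is shown as an example of how alike both genes are:
Havcr1-201, shared with Timd2: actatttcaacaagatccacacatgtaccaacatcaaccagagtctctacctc
How the authors treated reads that match both genes is not given in the sources used here.

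The tables held 64803 cell barcodes with 173806985 unique molecular identifiers (UMIs, each a counted RNA molecule), 7091848 to 31632205 per library. After a filter on genes and mitochondrial UMIs, 52797 barcodes stayed, with median depths of 1244 to 2662 UMIs. The day 11 tables stood apart: 5362 and 5424 of their 10800 and 10711 barcodes had under 500 genes and left, and these carried 15 Havcr1 UMIs in each library. No pair of libraries shared more than 4 barcodes. Cells were classed by raw UMIs of marker genes, and such a class is a range of a score, not a type: 52 to 527 cells per library lay near the limit of the proximal class. The classes bore out the labelled tissue, with 3733 of 6134 control cells (60.9%) bearing proximal tubule markers, 1598 distal markers and 45 podocyte markers. Proximal-marker cells made up 16.1% and 17.0% of the day 7 libraries, where macrophage-marker cells made up 27.8% and 30.7%. The UMIs of macrophage and distal cells bear on Havcr1 and are given with it.

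Havcr1 was nearly silent in control proximal-marker cells, abundant in the injured libraries to day 7, and back near the control level on days 11 and 14. In CPM, the UMIs of the gene per 1000000 UMIs of the summed proximal-marker cells, the control held 2.35 (exact Poisson interval 1.67 to 3.23, counting error only), from 38 Havcr1 UMIs. Day 1 held 2348 CPM, day 2 278 CPM and day 4 1550 CPM. The day 7 libraries held 2629 and 1228 CPM (1928 ± 991, SD, n = 2). The day 11 libraries held 6.94 and 3.89 CPM (5.42 ± 2.15, SD, n = 2), and those of day 14 held 3.37 and 5.05 CPM (4.21 ± 1.19, SD, n = 2). The libraries thus formed 3 levels that did not overlap: the control and days 11 and 14 under 7 CPM, day 2 alone at 278 CPM, and days 1, 4 and 7 above 1200 CPM. Within the low set the neighbours in the order overlapped in their counting intervals. The control interval lay below those of day 14 replicate 2 (3.95 to 6.38) and day 11 replicate 1 (5.08 to 9.26). The top of the order mixed the days, with 1 day 7 library above day 1 and the other below day 4.

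**Figure D1:**
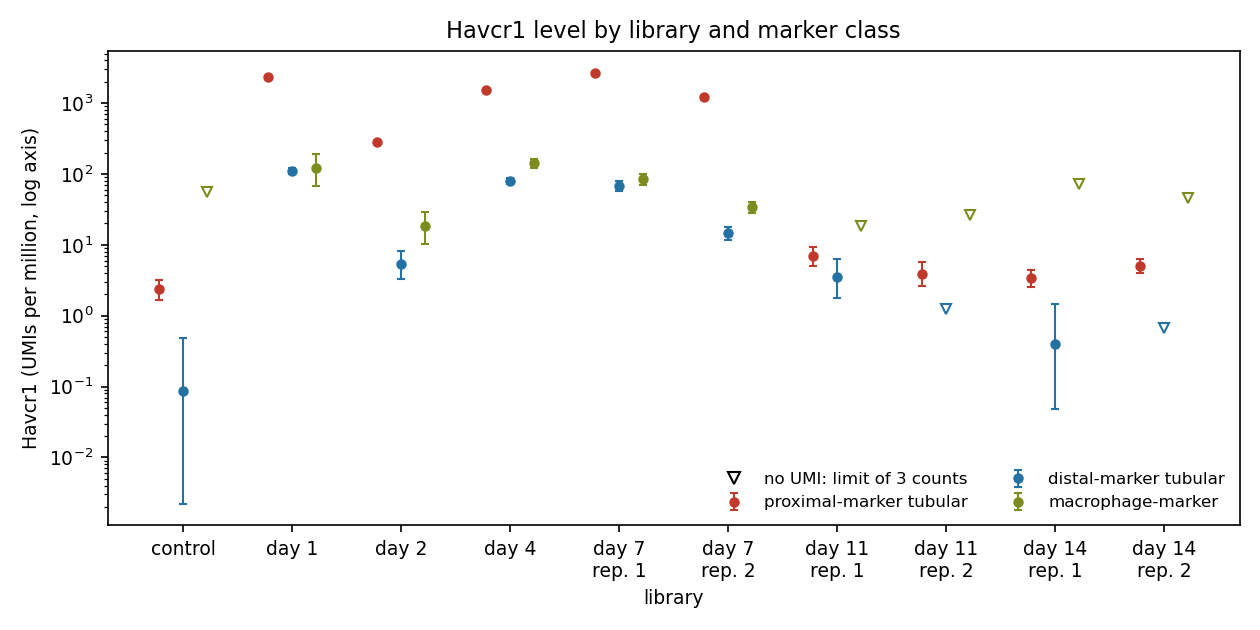
Havcr1 in CPM (log axis) by library, for the summed proximal-marker, distal-marker and macrophage-marker cells, with exact Poisson intervals (counting error only) as bars. Open triangles mark classes without a UMI, drawn at the level that 3 counts would give. The proximal-marker point is the highest of the 3 classes in each library of days 1 to 7, and day 2 stands between the low and the high libraries.

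The replicated days were compared with the 1 control and with each other in sums over all tubular cells. Scaled by TMM, the tubular sums held 1.69 CPM in the control, 673 and 370 CPM on day 7, 6.93 and 3.50 CPM on day 11, and 3.36 and 4.82 CPM on day 14. Against the control, day 7 tubular cells held more Havcr1 at a log2 change of 8.26 (SE 0.60, adjusted p = 8.88e-06 in the quasi-likelihood test of edgeR, adjusted by Benjamini-Hochberg over 16275 genes). That is the 29th highest change of all genes tested, in a comparison where 34.3% of genes were called. From day 7 to day 11 it fell by 6.64 on the log2 scale (SE 0.41, adjusted p = 3.33e-06 by edgeR; 44.4% of genes called), and day 14 lay below day 7 by a log2 change of -7.00 (SE 0.40, adjusted p = 1.23e-06 by edgeR; 46.1% called). The difference left at the end was far smaller than the day 7 change, and its call was not stable. Against the control it ranked 967th highest of the 16275 genes on day 11 and 969th on day 14. Day 11 lay above the control at a log2 change of 1.63 (SE 0.52), which did not pass in edgeR (adjusted p = 0.0531; 18.3% of genes called) but passed in the fit of the 2 groups alone (1.53, adjusted p = 0.00673), without a filter on low counts (1.48, adjusted p = 0.000261), and without either day 7 or either day 14 library (adjusted p from 0.0196 to 0.0492). In proximal-marker cells alone the day 7 change was 8.72 (adjusted p = 4.92e-06 in edgeR; 40.3% of 15011 genes called), and day 11 did not pass against the control (1.04, adjusted p = 0.197 in edgeR; 21.5% called). Day 14 exceeded the control by 1.27 (SE 0.51, adjusted p = 0.140 in edgeR; 8.03% called), and passed only without the filter (1.17, adjusted p = 0.00772). Days 11 and 14 differed by a log2 change of -0.36 (SE 0.40, adjusted p = 0.603 in edgeR; 13.0% called), and the sign turned to 0.22 without day 11 replicate 1. The numbers of genes called in the late comparisons rest on few libraries and also moved with other settings. With no filter on low counts, 2398 were called for day 14 against the control. Fits of the 2 groups alone called more genes for days 11 and 14 against the control than the fit of all libraries. Of the 2983 called between day 11 and the control, leaving out day 11 replicate 1 or 2 gave 1831 or 816. For day 14 against the control, 1307 were called, 614 or 306 without day 14 replicate 1 or 2, and 2543 or 2558 without day 7 replicate 1 or 2. Between days 11 and 14, 2110 were called, 967 or 496 without day 11 replicate 1 or 2, and 745 or 678 without day 14 replicate 1 or 2. From day 7 to day 11, 7219 were called, and 4625 without day 11 replicate 2. With 1 control library, its spread is taken from the other groups.

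Havcr1 was concentrated in the proximal tubule. Proximal-marker cells held 69.9% to 93.8% of each library's Havcr1 UMIs on days 1 to 7. All other tubular cells together held 227 CPM on day 1 against 2348 in proximal-marker cells, 18.9 against 278 on day 2 and 252 against 1550 on day 4. The day 7 values were 182 against 2629 and 57.4 against 1228 CPM. The late values were 3.54 against 6.94 and no UMI against 3.89 on day 11, and 0.38 against 3.37 and no UMI against 5.05 on day 14. Proximal-marker cells were higher in 9 of 9 injured libraries, by 2.82 ± 1.15 (SD, n = 9) in log2(CPM + 1), with a two-sided exact sign-flip permutation p = 0.00391, the smallest that 9 libraries can give. The smallest gap, 0.81, was in day 11 replicate 1, where 11 UMIs fell into 2 distal-marker cells. In the control, which was not in the test, the values were 2.35 and 0.08 CPM.

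Distal-marker, macrophage-marker and endothelial-marker cells held far less Havcr1 than proximal-marker cells on days 1 to 7, but not equally little. Distal-marker cells held 110, 5.32, 78.7, 67.3 and 14.6 CPM in the libraries of days 1, 2 and 4 and day 7 replicates 1 and 2, and macrophage-marker cells held 120, 18.1, 141, 83.6 and 33.7 CPM. Endothelial-marker cells held 135, 10.1, 104, 77.3 and 14.4 CPM in the same libraries. Whether the macrophage-marker and endothelial-marker cells made this RNA themselves was not tested. The distal level was below the macrophage level in 5 of 5 libraries, with separate counting intervals on day 2, on day 4 and in day 7 replicate 2. Counted at each cell's full depth, cells with 3 or more Havcr1 UMIs were 1.74% of distal-marker and 0% of macrophage-marker cells on day 1. On day 2 they were 0.321% and 0%. They were 2.24% and 0.636% on day 4, and 0.974% and 0.497% in day 7 replicate 1. In day 7 replicate 2 they were 0.163% and 0.253%. Median depths in these libraries were 1861, 3068, 2429, 1655 and 2301 UMIs in distal-marker cells. In macrophage-marker cells they were 1231, 2554, 1468, 1279 and 1699 UMIs, which bears on these shares. Whether distal cells express the gene was not tested. The endothelial level was above the macrophage level on day 1 alone, with overlapping intervals. Small classes also lay above it: on day 1 stromal-marker cells held 229 CPM and neutrophil-marker cells 230 CPM, from 10 and 8 Havcr1 UMIs, and on day 4 stromal-marker cells held 173 CPM from 13, with intervals that overlap the macrophage ones. Podocyte-marker cells held 335 CPM on day 4 and 394 CPM in day 7 replicate 1, from 2 UMIs each. Stromal-marker cells held 27.0 CPM on day 2, from 4 UMIs. Cells with B cell markers held 179 CPM on day 1 and 336 CPM in day 7 replicate 1, from 1 UMI each. The source of these UMIs was not tested. Tubular cells that passed neither segment's rule were different: they held 623, 86.0, 1130, 819 and 480 CPM, several times the macrophage level in each library. On day 4 they came close to the 1550 CPM of proximal-marker cells, and their thinned share of positive cells was 43.2% against 42.9%. On days 11 and 14 none of the 4 libraries had a Havcr1 UMI in macrophage-marker cells, whose 33 to 108 cells allow 18.7 to 71.3 CPM, so the late proximal level cannot be set against a macrophage level.

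The share of proximal-marker cells with at least 1 Havcr1 UMI split the libraries into the same broad levels as the summed CPM, with another order inside the low and high sets. It was 0.911% in the control (34 of 3733 cells, exact binomial interval 0.632% to 1.27%). Day 1 had 67.5% positive cells, day 2 10.5% and day 4 56.0%. In the day 7 libraries it was 66.8% and 56.3%, on day 11 1.02% and 0.702%, and on day 14 0.987% and 1.11%. Shares depend on depth, so cells were also thinned to 1000 UMIs, leaving out 98 to 793 shallower proximal-marker cells per library. Thinned, the control had 0.112% positive cells, day 1 56.6%, day 2 6.01% and day 4 42.9%. The shares were 64.8% and 44.1% in the day 7 libraries, 0.431% and 0.295% in those of day 11, and 0.172% and 0.452% in those of day 14. In macrophage-marker cells the thinned share was 6.67% on day 1, 0.858% on day 2, 12.5% on day 4, and 5.53% and 2.88% on day 7. In distal-marker cells it was 12.7%, 0.705%, 11.4%, 6.23% and 2.57% in the same libraries, above the macrophage share on day 1 and in day 7 replicate 1. The median depth before thinning was 1231 to 2554 UMIs in those macrophage-marker cells and 1691 to 2435 in the proximal-marker cells. On day 2 the positive cells were a small minority, at 6.01% against 0.858% in macrophage-marker cells.

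**Figure D2:**
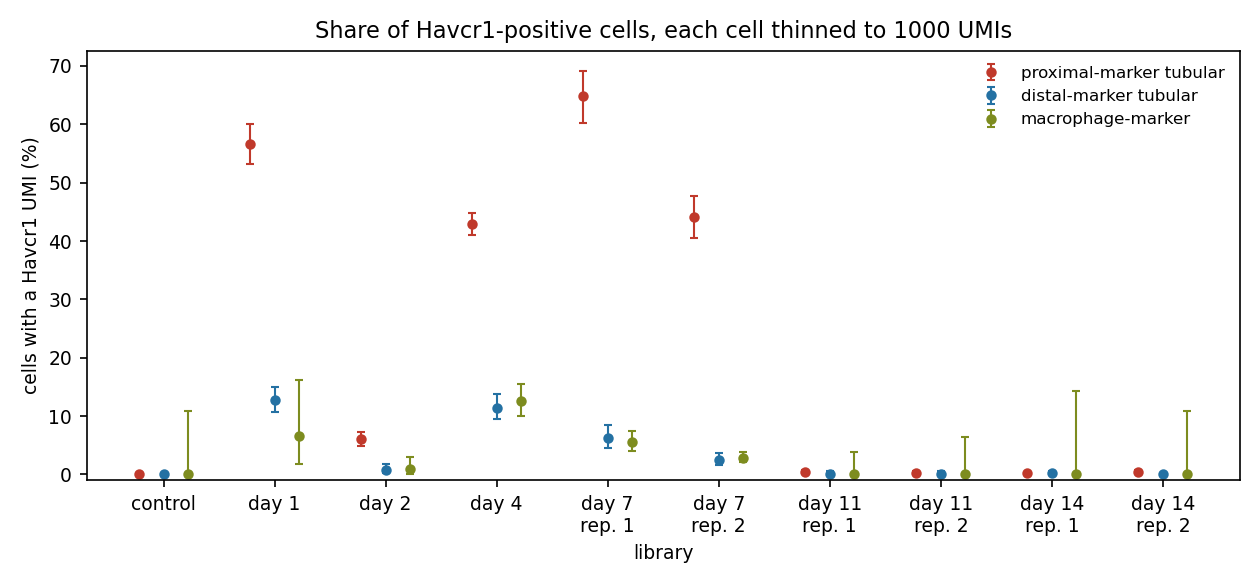
Percent of cells with a Havcr1 UMI after each cell was thinned to 1000 UMIs, by library and marker class, with exact binomial intervals (counting error only). On days 1, 4 and 7 the proximal-marker shares lie between 42.9% and 64.8%, while the distal-marker and macrophage-marker shares stay at 12.7% or lower.

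Havcr1 counts were uneven among the positive cells, whose depths also differed. The median positive proximal-marker cell held 4 UMIs on day 1, 1 on day 2, 3 on day 4, and 5 and 4 on day 7. The 10% of positive cells with the most Havcr1 held 53.4% of the Havcr1 UMIs on day 1, 76.1% on day 2, 60.9% on day 4, and 41.3% and 49.98% on day 7. Cells with 10 or more UMIs were 20.2% of all proximal-marker cells on day 1, 1.83% on day 2, 14.02% on day 4, and 20.03% and 17.0% on day 7. As a share of the cell's own UMIs, the median and the 90th percentile of positive cells were 0.177% and 0.606% for day 1, 0.0619% and 0.348% for day 2, and 0.137% and 0.454% for day 4. Day 7 replicate 1 gave 0.281% and 0.799%, replicate 2 0.142% and 0.465%. The highest single count was 601 UMIs, 0.454% of the 132410 UMIs of a day 4 cell, a barcode deep enough that more than 1 cell may share it. In the highest cell of day 1, Havcr1 took 0.826% of all UMIs. In the control no proximal-marker cell had over 2 UMIs, and on days 11 and 14 between 83.3% and 96.3% of the positive cells had 1. An exception was a day 14 replicate 2 cell with 15 Havcr1 UMIs of 18108.

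The proximal tubule runs from its convoluted part, S1 and S2, to its straight part, S3. Havcr1 differed between cells sorted by markers of these parts. On day 4, cells with S3 markers held 3429 CPM (267 cells, 85.02% positive) and cells with S1 and S2 markers 888 CPM (1814 cells, 45.3% positive). On day 7 the S3-marker cells held 3086 and 1622 CPM, and the S1 and S2 cells held 1677 and 722 CPM. Day 1 showed no such gap between S3-marker and S1 and S2 cells, at 2271 CPM in only 14 S3-marker cells and 2284 CPM in 703 S1 and S2 cells. On day 2 the 6 S3-marker cells held 2888 CPM, from 126 UMIs in 2 of them, and the 1875 S1 and S2 cells 157 CPM. The S3-marker cells were deeper on day 4 (median 3397 against 2176 UMIs) and on day 7, which bears on the positive shares. Markers used for this sorting also changed with Havcr1 itself. On day 4, thinned cells with 0, 1 to 2 and 3 to 9 Havcr1 UMIs held 2304, 1049 and 231 CPM of Slc34a1. The S3 marker Slc7a13 held 515, 194 and 26.4 CPM there, and also fell in day 7 replicate 2. In the other libraries of days 1 to 7 Slc7a13 did not fall in this order. Whether this moved cells between the parts was not tested. Proximal-marker cells with neither set of part markers held 2708 CPM on day 1 (interval 2565 to 2856, above the 2227 to 2341 of the S1 and S2 cells), 2153 CPM on day 2, 1747 CPM on day 4, and 3817 and 1550 CPM on day 7. For the control and both later days the counting intervals of the S1 and S2 cells and the S3-marker cells overlapped. These values are a description without a test.

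**Figure D3:**
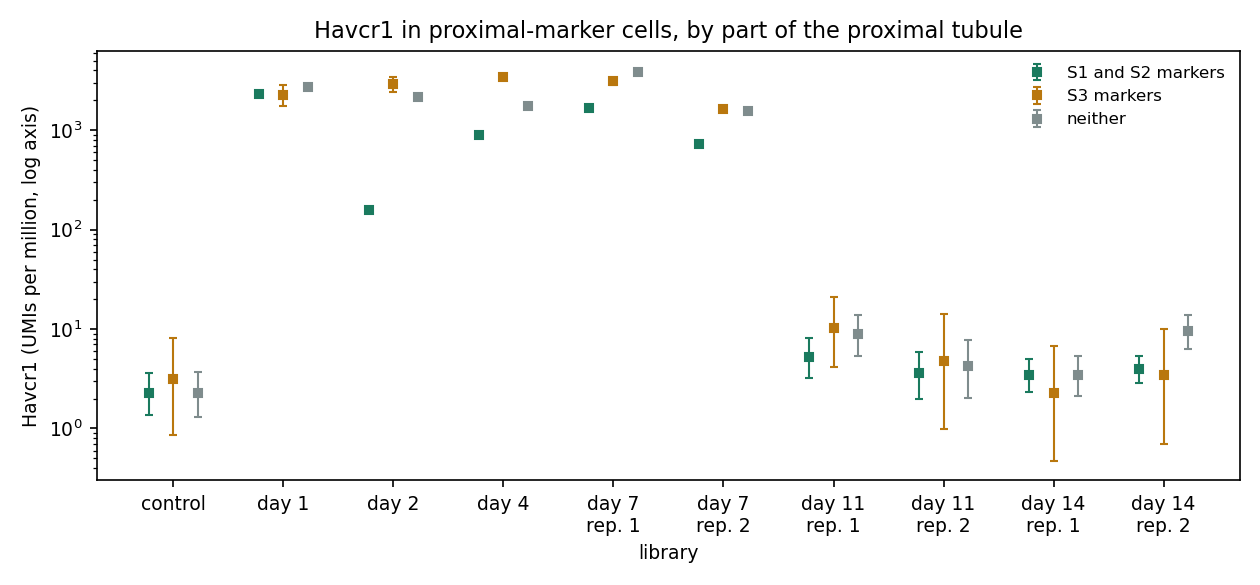
Havcr1 in CPM (log axis) in proximal-marker cells with S1 and S2 markers, S3 markers or neither, by library, with exact Poisson intervals (counting error only). S3-marker cells lie above S1 and S2 cells in the day 2, day 4 and day 7 libraries, while on day 1 they are level at 2271 and 2284.

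Genes that accompany Havcr1 were sought by comparing cells with a Havcr1 UMI against cells without one inside each library, all thinned to 1000 UMIs. The 5 libraries of days 1 to 7 had at least 20 cells of both kinds. Among all tubular cells, 469 of 9623 genes (4.87%) were higher and 565 (5.87%) lower in positive cells, in edgeR's quasi-likelihood test with library as a block, adjusted by Benjamini-Hochberg. Without day 7 replicate 2 the counts were 167 and 286, and without day 7 replicate 1 they were 296 and 394. Genes were ranked here only if they had the same direction in each of the 5 libraries and an average log2 CPM of at least 5. Of these, the higher genes were led by Krt20 (2.80), Cd44 (2.46), the claudin gene Cldn1 (2.40), D630011A20Rik (2.36) and Vcam1 (2.34). The 10 lowest were Fxyd4 (-2.46), Pgam2, Hsd11b2, Calb1, Stk39, Atp6v1b1, Kcne1, Klk1b5, Slc12a3 and Olfm1 (-2.18). Among them, Slc12a3 encodes a salt transporter of the distal convoluted tubule and Atp6v1b1 a proton pump subunit of intercalated cells, and the negative tubular cells include distal-marker cells. Over the alternative settings of the 25 genes named for tubular cells, 3 calls were lost. Among them was that of Olfm1 at 750 UMIs per cell (adjusted p = 0.0645, edgeR). Positive tubular cells include distal-marker cells too, 121 of 751 on day 1. Of 36 genes of tubular injury other than Havcr1, all tested here, 15 were higher and 7 lower (against 4.87% and 5.87% of all genes), with a median log2 difference of 0.24 against 0.02 over all genes tested. The higher ones included Krt20, Cd44 and Vcam1, and the intermediate filament gene Vim (2.12). Lcn2, which encodes the injury marker NGAL, was lower in Havcr1-positive tubular cells in 5 of 5 libraries, by a log2 difference of -1.73 (SE 0.15, adjusted p = 3.52e-05, edgeR). It held 714 against 1874 CPM on day 1, and 317 against 1582 and 314 against 1145 CPM in the day 7 libraries. Clu (-1.97), Krt7 (-1.99), Krt19 (-1.65), Sprr2f (-2.12), Cd24a (-1.47) and Krt18 (-0.76) were the other lower members of that list.

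Within proximal-marker cells alone, day 1 gave 473 positive and 363 negative cells, day 2 97 and 1516, and day 4 1186 and 1576. In the day 7 libraries they numbered 300 and 163, and 344 and 436. Here 400 of 5703 genes (7.01%) were higher and 533 (9.35%) lower in positive cells, by the same test. The counts rested most on day 4: without it they were 120 and 124, without day 7 replicate 2 they were 227 and 361, and DESeq2 called 183 and 277. Limiting the cells to those with S1 and S2 markers gave 194 and 260. A negative cell may still express the gene below detection, and a positive cell may hold a UMI that is not its own: 2.88% to 12.5% of macrophage-marker cells had a Havcr1 UMI after thinning on days 1, 4 and 7.

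S100a6, a calcium-binding protein gene, led the genes higher with Havcr1, with a log2 difference of 2.09 (SE 0.27, adjusted p = 6.98e-05 in edgeR). It held 2516 against 962 CPM on day 1, 7064 against 542 on day 2 and 2987 against 504 on day 4, and 894 against 397 and 1180 against 479 CPM on day 7. Krt20, a keratin gene of injured epithelium, was higher by 2.08, the hyaluronan receptor gene Cd44 by 1.87, the intermediate filament gene Vim by 1.78 and the small heat shock protein gene Hspb1 by 1.68. Plat, the gene of tissue plasminogen activator, was higher by 1.78. The mitotic genes Cdc20 and Prc1 were higher by 2.02 and 1.85. Akr1b8, Tnfaip2, Sprr1a, Emp3, D630011A20Rik and 1700025G04Rik were higher by 1.69 to 1.95. Genes were named only if higher in each of the 5 libraries. Akr1b8 did not pass without day 4 (adjusted p = 0.0830, edgeR).

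Fam151a led the genes lower with Havcr1, by a log2 difference of -2.47 (SE 0.34, adjusted p = 0.000112, edgeR). Pck1 and G6pc, which encode the glucose-making enzymes of the proximal tubule, were lower by -1.95 and -1.94. Pck1 held 111 against 224 CPM on day 1, 171 against 575 on day 2 and 168 against 667 on day 4, and 39.2 against 183 and 49.7 against 405 CPM on day 7. Rnase4, Dpep1, Cyp2d26, Nepn, Akr1c21, Slc6a20b and Abat make up the rest, at -1.92 to -1.76, likewise named only if lower in each library. Nepn did not pass without day 4 (adjusted p = 0.0519, edgeR).

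**Figure D4:**
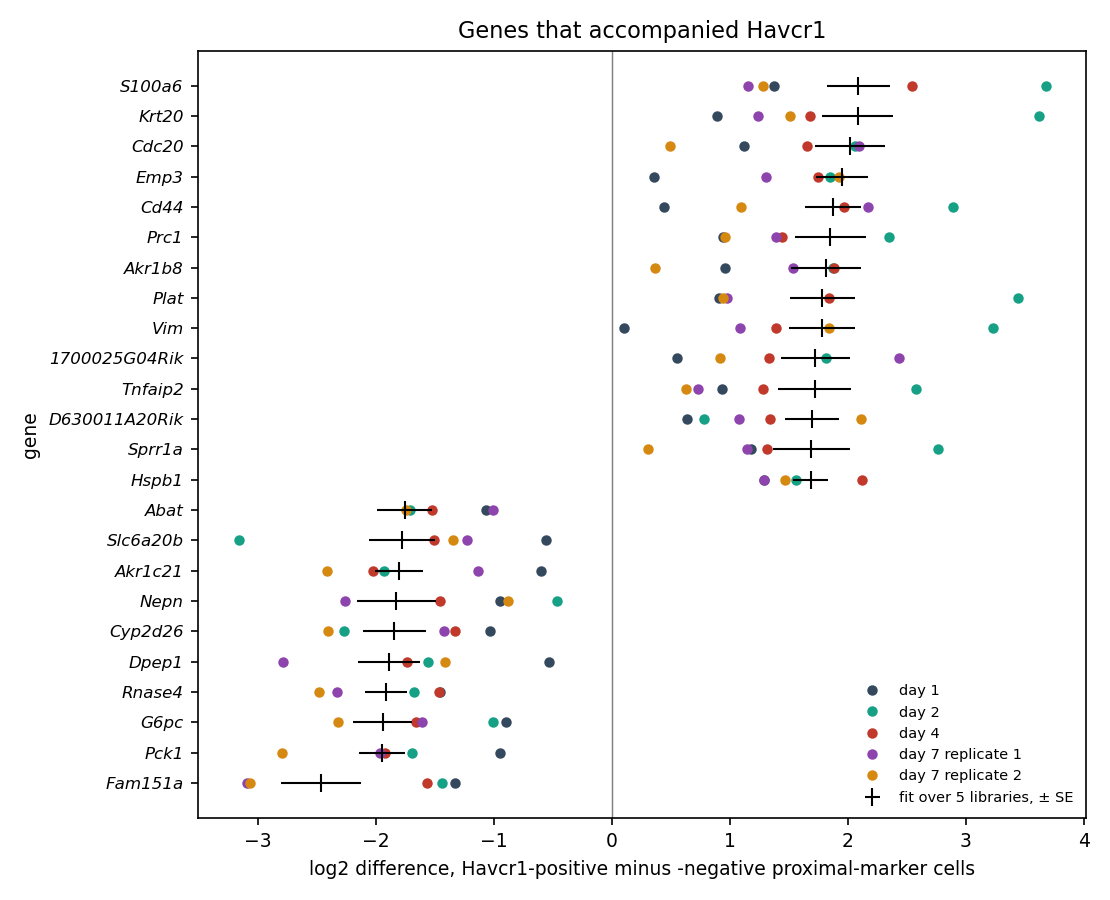
Log2 differences between Havcr1-positive and -negative proximal-marker cells for the 14 genes highest and the 10 lowest with Havcr1. Points are single libraries, computed from CPM with 10 added to both values, and black marks are the fit over 5 libraries with its standard error. Genes were chosen to have all points on 1 side of 0, and the sizes differ between libraries, as for S100a6, whose day 2 point lies farthest out.

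Markers of other cell types were followed in the same cells. Over all genes tested there, 7.01% were called higher and 9.35% lower. Few of these markers could be tested, so a list without a call carries little weight. Macrophage markers summed to 154 to 1130 CPM in positive and 165 to 1307 CPM in negative proximal-marker cells, and were higher in positive cells in 3 of 5 libraries. Of 16 marker symbols, 2 were abundant enough to test and 1 was called higher (Cd14). The symbol Adgre1 was at 0, but a symbol missing from a table was also taken as 0. The list also holds Emr1, another symbol of the same gene, so this 0 does not show that the gene was silent. Endothelial markers summed to 178 to 340 CPM in positive and 83.8 to 166 CPM in negative cells, higher in 5 of 5 libraries. The 1 endothelial marker tested and called was Plat, already among the genes above. Markers of fibroblasts and other stromal cells summed to 43.0 to 75.6 and 28.6 to 81.8 CPM, with none of 13 abundant enough to test. Markers of principal cells of the collecting duct summed to 113 to 247 CPM in positive and 138 to 365 CPM in negative cells, higher in positive cells in 0 of 5 libraries, and neither of the 2 tested was called. Erythroid markers summed to 20.6 to 2790 and 32.1 to 1190 CPM, higher in positive cells in 1 of 5 libraries, and none of the 4 tested was called. The other 6 lists were higher in positive cells in 2 or 3 of 5 libraries. Neutrophil, T and NK cell, podocyte and distal convoluted tubule markers had no member abundant enough to test. Neither the 2 thick ascending limb markers tested nor the 1 intercalated cell marker tested was called. The part of other cell types in the differences was not tested further.

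Of the 36 injury genes, 34 were tested in proximal-marker cells, 17 were higher and 3 lower, against 7.01% and 9.35% of all genes, with a median log2 difference of 0.64 against 0.02 over all genes tested. The lower count is near that background. Vcam1, an adhesion molecule gene of inflamed tubule, was higher by 1.54 (SE 0.20, adjusted p = 6.98e-05, edgeR), at 689 against 258 CPM on day 4. Ccl2, which encodes a chemokine that draws monocytes, was higher by 2.06 (SE 0.26, adjusted p = 6.25e-05, edgeR) but not on every day. It held 14.5 against 30.1 CPM on day 1, 375 against 34.6 on day 2, 915 against 160 on day 4, and 630 against 189 and 993 against 355 CPM on day 7. The 3 lower genes were the fibrinogen chain genes Fgg (-1.39), Fga (-1.37) and Fgb (-0.95), of which Fgb did not pass without day 4 or day 1, or in DESeq2. Lcn2, lower in the positive cells of the tubule as a whole, did not differ detectably within proximal-marker cells (0.19, SE 0.19, adjusted p = 0.557, edgeR). Sox9 (0.09), Sox4 (0.13), Cd24a (0.09) and Clu (-0.15) were not called either. Krt18, lower in the positive cells of the tubule as a whole, was called higher here. So was Krt8, and both are markers that helped to choose the cells.

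Of 25 genes of proximal function, 22 were tested in proximal-marker cells, 19 were lower and none higher, against 9.35% and 7.01% of all genes, with a median log2 difference of -1.24. Among all tubular cells none of the 23 tested was called, where 4.87% of all genes were higher and 5.87% lower. Of the tested genes, 14 are in the lists of markers, and 11 of them were lower. All of the 14 but Kap, which defined no class, helped to choose the cells. The 8 genes outside the lists of markers were all lower, with Gatm at -1.52, Fbp1 at -1.44 and Ass1 at -1.14. Slc34a1, the gene of the phosphate transporter of the proximal brush border and itself among those markers, was lower by -1.52 (SE 0.14, adjusted p = 4.12e-06, edgeR). It held 689 against 1273 CPM on day 1, 1490 against 4472 on day 2 and 743 against 2522 on day 4, and 613 against 1531 and 406 against 1673 CPM on day 7. Hnf4a, the transcription factor gene that maintains proximal identity and likewise a marker, was lower by -0.51. That call was lost in DESeq2, among S1 and S2 cells, and without day 2, day 4 or day 7 replicate 2.

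Of 14 proliferation genes, 6 were abundant enough to test and 5 were higher, against 7.01% of all genes, with a median log2 difference of 1.04. They were Mki67 (1.52), Top2a (1.39), Pcna (1.07), Cenpf (1.005) and Hmgb2 (0.81). Mki67 was seen in 17.1% of positive and 7.71% of negative cells on day 1, and in 20.6% and 4.35% on day 2. On day 7 the shares were 4.33% and 1.84% in replicate 1, and 1.45% and 1.38% in replicate 2. Cenpf and Hmgb2 did not pass without day 4.

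The functions that Kim-1 is known for were followed through 4 lists, whose counts in proximal-marker cells stand beside the 7.01% of all genes called higher and 9.35% called lower. Of 28 symbols for engulfment and lipid uptake, among which Adgrb1 and Bai1 name the same gene, 27 were in the tables of counts. Of these, 10 were tested, 2 were higher and 3 lower, with a median log2 difference of -0.080. Mfge8, whose protein bridges phosphatidylserine to integrins, was higher by 0.76, and the engulfment GTPase gene Rac1 by 0.57. Gas6, another bridging protein gene, was lower by -0.86 (SE 0.14, adjusted p = 0.000484, edgeR) and in 5 of 5 libraries. The endocytic receptor genes Lrp2 (-1.05) and Cubn (-0.74), both used as proximal markers, were lower. The calls of Mfge8, Rac1 and Cubn were lost in DESeq2, without day 4 and without day 7 replicate 2, that of Rac1 also without day 1 and with positives at 3 or more UMIs, and that of Cubn also without day 2 and among S1 and S2 cells. Of 17 phagosome and lysosome genes, 12 were tested with a median of -0.021, none was higher, and Lamp2 (-0.41), Ctsb (-0.41) and Gabarapl1 (-0.56) were lower. All 3 calls were lost without day 4 and among S1 and S2 cells, those of Lamp2 and Ctsb also in DESeq2 and without day 2 or day 7 replicate 1, and that of Ctsb without day 1. Of 8 genes of shedding, 3 were tested: the metalloprotease genes Adam10 (0.18) and Adam9 (-0.38) were not called, and the protease inhibitor gene Timp3 was lower by -0.83 (SE 0.12, adjusted p = 0.000166, edgeR). Of 12 transcription factor genes linked to Havcr1, 9 were tested, none was higher and 1 was lower, a share near the background. Fos was lower by -0.58, a call lost among S1 and S2 cells. Stat3 (-0.25) was not called.

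Cells were also ordered by the number of Havcr1 UMIs after thinning. Summed proximal markers on day 4 were 18673 CPM in cells with no Havcr1 UMI, 10526 with 1 to 2 and 5533 with 3 to 9. On day 2 they were 19166, 11901 and 3920 CPM, and in day 7 replicate 2 they were 13303, 7205 and 5007 CPM. The steps were smaller on day 1, at 9003, 7984 and 7314 CPM, and in day 7 replicate 1, at 9847, 8756 and 6587 CPM. Vcam1 went the other way, from 236 through 562 to 817 CPM on day 4, and from 30.3 through 48.0 to 105 CPM on day 1. Spp1, the osteopontin gene, had no common order: it was 12171, 10456 and 6319 CPM on day 1, but 2607, 5211 and 10064 CPM on day 4. Cells with 10 or more Havcr1 UMIs numbered 30 in day 7 replicate 1, where Vcam1 was 833 CPM against 1357 CPM in cells with 3 to 9, and 17 or fewer elsewhere. The total per cell was fixed by thinning, and Havcr1 itself took 4532 to 5049 CPM of it in cells with 3 to 9 UMIs.

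**Figure D5:**
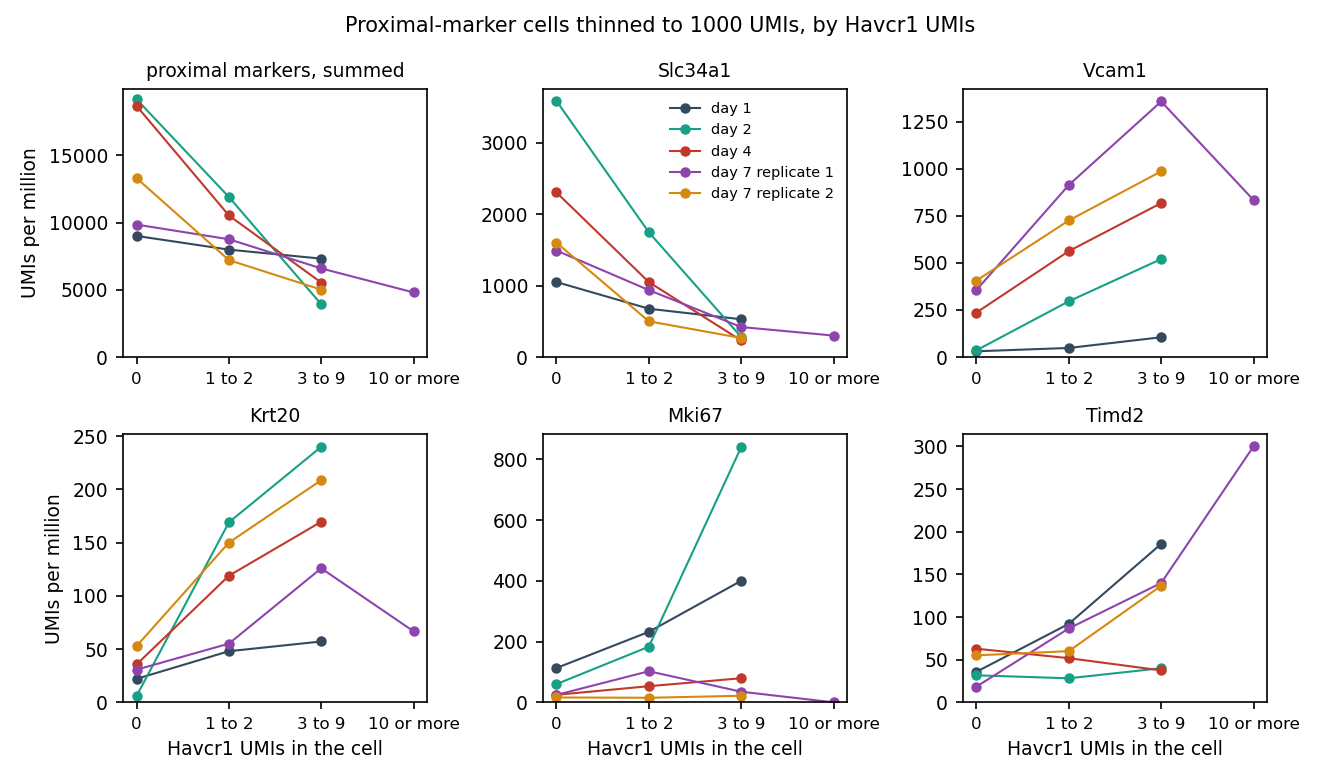
Levels in CPM of summed proximal markers and of 5 genes in proximal-marker cells thinned to 1000 UMIs, by the cell's number of Havcr1 UMIs, with 1 line per library and only groups of at least 20 cells. Proximal markers and Slc34a1 step down in each library from 0 to 3 to 9 UMIs, Vcam1 steps up, and Timd2 differs between libraries.

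Of the relatives, Timd2, whose protein is known as a ferritin receptor, was also found in proximal-marker cells but varied far less over the days. The control held 33.0 CPM of it there, day 1 112 CPM, day 2 43.2 CPM and day 4 61.1 CPM. The day 7 libraries held 81.6 and 65.0 CPM of it, those of day 11 37.0 and 45.8, and those of day 14 36.7 and 42.1. It was not called between day 7 and the control in proximal-marker cells (0.20, SE 0.23, adjusted p = 0.516, edgeR) or in all tubular cells (-0.23, SE 0.24, adjusted p = 0.494, edgeR). Among all tubular cells Timd2 was called higher on day 11 than on day 7 (0.83, SE 0.20, adjusted p = 0.00781, edgeR) and on day 14 than on day 7 (0.90, SE 0.20, adjusted p = 0.00397, edgeR), while in proximal-marker cells neither was called (-0.0282 and -0.0925). Proximal-marker cells were 584 of 1716 and 878 of 2392 tubular cells on day 7, against 3542 of 4576 in day 11 replicate 1; their part in this was not tested. In 3 libraries its level was higher beside Havcr1: Timd2 was 157 against 43.4 CPM in positive and negative proximal-marker cells on day 1, and 131 against 18.9 and 96.4 against 57.5 CPM on day 7. On day 4 it was 46.7 against 68.8 CPM and on day 2 34.1 against 39.5 CPM, and over the 5 libraries it was not called (0.58, SE 0.31, adjusted p = 0.218, edgeR). Among all tubular cells it was called higher with Havcr1 (1.59, SE 0.41, adjusted p = 0.0247, edgeR). Whether reads of the shared runs, the one in the 3′ UTR among them, enter these counts was not tested. Havcr2, the gene of TIM-3, was found mainly in immune cells: on days 1 to 7 it held 32.9 to 45.9 CPM in macrophage-marker cells and 0.34 to 0.95 CPM in proximal-marker cells. Timd4, known from resident macrophages, reached 16 UMIs in the macrophage-marker cells of day 7 replicate 2 and at most 3 in those of any other library.

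Across the 10 libraries, the tubular level of some genes had nearly the pattern of Havcr1. Among 4425 genes, Tubb5, a tubulin gene, was the most alike (Pearson r = 0.990 over 10 libraries, on log2(CPM + 1)), with 23.0 CPM in the control, 213 on day 1, 115 on day 2, 233 on day 4, 172 and 186 on day 7, and 29.8 to 38.6 CPM on days 11 and 14. Serpinb6a (0.982), Tpm4 (0.981), Rtn4 (0.981), Nras (0.980), 2200002D01Rik (0.978), Capn2 (0.976), Tes (0.975), Sh3bgrl3 (0.975) and Net1 (0.974) followed. The libraries fall into a low set of 5 and a high set of 5, and r over such sets is a description. Tubb5 was also lower on day 2 than on days 1 and 4, as Havcr1 was, though by a smaller factor.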

How the data were processed

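Single cells of mouse kidney cortex were profiled by Drop-seq. Per the labels' protocols, cells were captured on microbeads, the cDNA was amplified and its 3′ end was sequenced after a modified Nextera XT preparation. The deposited tables hold whole-number counts per gene and barcode, taken as UMI counts; Bowtie2 2.2.7 and mm10 are named in the submitters' processing notes, and other steps by the authors are not given in the sources used here. A gene missing from a table was taken as 0.

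A barcode was kept if it had 500 or more UMIs, 500 or more genes and no more than 50% of its UMIs from mitochondrial genes. Cells were classed from raw UMIs of 141 marker genes: a class needed 3 UMIs from 2 of its markers and 70% of all class-marker UMIs, and proximal or distal needed the same within tubular cells. Part markers (S1 and S2, or S3) needed 2 UMIs and 2 times those of the other set. Barcodes with markers of several classes were kept apart, no doublet caller was used, and a setting without the 5% of barcodes with most UMIs was run. Cells are not replicates: counts were summed per library and tested with edgeR 4.0.16 (TMM, filterByExpr, quasi-likelihood F test, Benjamini-Hochberg adjustment, threshold 0.05; SE from the F statistic), over all 10 libraries for days, with 3 residual degrees of freedom, and with library as a block for Havcr1-positive against -negative cells, with 4. The sign-flip test was run in Python 3.11.15 on log2(CPM + 1). Shares carry exact (Clopper-Pearson) 95% intervals and levels exact Poisson ones, for counting error only; a count of 0 allows 3 counts. On simulated counts the day 7 test recovered 89.5% of 200 genes changed 4-fold, with 9 false calls of 12947 genes. The simulation gave all genes the same fixed spread and left out genes with low mean counts. It therefore does not measure the error at the real spread.

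Named genes are the 15 highest and 10 lowest called genes with the same direction in every library and an average log2 CPM of at least 5, the 10 genes most alike over libraries, and members of lists; some of them are not reported here. The gene, the lists and the tests were chosen with earlier results of these data known. Transcripts and positions are from GENCODE M21. Alternatives were DESeq2 1.42.0, its size factors, no filter, other depths, left-out libraries, a replicate block and other sets of cells; the proximal-marker count's own alternatives and the limit of 3 Havcr1 UMIs were chosen after seeing the data.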

Additional observations from a re-analysis of the deposited data

Results flagged for a closer look

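Havcr1 was also present in barcodes that entered no class because they carried markers of several cell types. These held no Havcr1 UMI among 292 control barcodes, which allows up to 5.07 CPM. They held 245 CPM on day 1, 46.6 CPM on day 2 and 811 CPM on day 4, and 899 and 404 CPM in day 7 replicates 1 and 2, above the control limit in each case. In day 7 replicate 1 these 773 barcodes carried 16.8% of the library's Havcr1 UMIs, and their median depth was 903 UMIs, below the 1691 of proximal-marker cells. On days 11 and 14 they had none.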

How the results depend on the processing

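The rise of Havcr1 on day 7 and its fall to days 11 and 14 kept their direction and call under all 15 alternatives run for each, at log2 changes of 7.77 to 8.72, -7.69 to -6.14 and -8.04 to -6.51. The proximal excess kept its call in all alternatives, at 2.62 to 3.07 with 1 library left out, 2.10 with 10 added in place of 1 and 2.24 without the deepest 5% of barcodes. Leaving out 1 library gave 1.04 to 2.03 for day 11 against the control, 0.99 to 1.504 for day 14 against the control and -0.76 to 0.22 for day 14 against day 11. Day 11 against the control passed at 1.48 with no filter, 1.58 (adjusted p = 0.0259, edgeR) with the replicate block and 1.53 with 2 groups only, and day 14 at 1.17 with no filter; the block, whose numbers share no more than a label (correlations of deviations 0.0579, -0.0278 and -0.0519), changed no other Havcr1 call, but moved the genes called between day 14 and the control from 1307 to 1975. Accompanying genes in tubular cells ranged from 167 to 438 higher and 286 to 574 lower with 1 library left out. Without thinning, which brings in all 10 libraries, they were 841 and 1785. With no filter 959 were lower, and with positives at 3 or more UMIs 292 were higher, likewise 292 in proximal-marker cells. In proximal-marker cells the ranges were 120 to 447 and 124 to 608, DESeq2 gave 183 and 277, and S1 and S2 cells 194 and 260. Of the named genes in these cells, Lcn2 ranged from -0.0599, without day 7 replicate 2, to 0.39. Shares fell where 2 UMIs were asked, to 0.107% in the control, 51.8% on day 1, 4.77% on day 2, 36.6% on day 4, 48.9% on day 7, 0.0977% on day 11 and 0.0847% on day 14. Thinned, they were 0.112%, 56.6%, 6.01%, 42.9%, 0.363% (day 11) and 0.312% (day 14). Without the deepest 5% of barcodes day 2 was 8.49% and day 14 0.867%, and at 25% mitochondrial UMIs day 14 was 1.18%. On days 11 and 14 the shares rest on cells that mostly held 1 UMI. The causes of these shifts were not tested.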

Other observations

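In day 11 replicate 1, a proximal-marker cell held 5 Havcr1 UMIs of 2241, and 11 UMIs fell into 2 distal-marker cells. The highest proximal-marker cell of day 11 replicate 2 and that of day 14 replicate 1 held 2, as in the control.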
